A study of Mus musculus with 48 samples.

Results

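Total RNA from lysates of mouse embryonic stem cells lacking Ago2 was compared with lysate RNA of the tagged cells that still carry the gene. The comparison used 12 of the 48 libraries in the series: the 6 HA-Tnrc6a_Ago2KO inputs and the 6 HA-Tnrc6a inputs, chosen by their labels as 3 of each genotype in experiment 3 and 3 of each in experiment 4. An input is the lysate sampled without HA capture, so its values are RNA levels and not binding. To recover RNA bound to HA-tagged Tnrc6a, the series used HA beads on lysates of 4 genotypes, an untagged control among them. The input of every capture was sequenced alongside it.

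Every cell line of the comparison descends from 129S6/SvEvTac embryonic stem cells that carry the yGlob reporter GFP_5xT71BS and stably express FLAG-Cas9 with a linked blasticidin marker. The HA-Tnrc6a cells in addition carry HA-AVI-Tnrc6a, a haemagglutinin and AVI tag on Tnrc6a. The Ago2 knockout cells carry the same tag together with Ago2-/-. Untagged reporter cells and HA-AVI-Tnrc6a cells with Upf1-/- supplied 6 further inputs each and served here as outside reference levels. All were grown on gelatin in medium with serum and LIF, with no drug treatment named. The labels do not state how many clones stand for a genotype, and the replicates are dishes grown in triplicate. The p-values therefore measure the spread between dishes, and a difference between clones and the loss of Ago2 cannot be told apart.

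Argonaute proteins are loaded with microRNAs and bind partly complementary sites, most often in the 3′ untranslated parts of mRNAs. GW182 proteins, in mammals Tnrc6a, Tnrc6b and Tnrc6c, dock on Argonaute and bring in the deadenylation and decapping machinery that silences the target. Ago2 is the mammalian Argonaute best known for cutting fully paired targets. In mouse embryonic stem cells, microRNAs of the miR-290 and miR-302 families are known for sustaining the short G1 phase and for their part in the exit from pluripotency.

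Library totals were 15829009 to 19595405 counts in experiment 3 and 30397981 to 37101637 in experiment 4. Of the 12 libraries, HA-Tnrc6a replicate 3 of experiment 3 stood apart: 3.75% of its counts fell on 6 ribosomal RNA genes, picked after seeing the data, against 0.178% to 0.558% in the other 11. The embryonic stem cell label held: 8 of 8 stem cell markers were measured, and their summed level was 7211 to 7712 CPM without Ago2 against 6793 to 6826 CPM with it in experiment 3, and 7259 to 7406 against 6782 to 6918 CPM in experiment 4. CPM is the count scaled to a common library size, here adjusted for library composition over the 24 inputs. Of the 3 trophectoderm markers, Gata3 was the only member in the table, and its level stayed at or below 0.509 CPM in the 12 libraries.

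The targeted gene came first as a check on the labels. Ago2 (chromosome 15, 73101625 to 73184947, GRCm38) measured 108, 103 and 104 CPM in experiment 3 and 149.8, 144 and 138 CPM in experiment 4 without Ago2, against 226, 232 and 226 CPM and 358, 355 and 334 CPM in HA-Tnrc6a lysates. The groups did not overlap in either experiment, and the log2 fold change averaged over both experiments was -1.21 (SE 0.03, adjusted p = 6.3e-34) by edgeR's quasi-likelihood test with Benjamini-Hochberg adjustment over all genes. Ago2 counts remained well above 0 in the knockout, and a count over the whole gene does not show what was changed at the locus. Ago1, another Argonaute, measured 124, 121 and 114 CPM in experiment 3 and 121, 119 and 119.6 CPM in experiment 4 without Ago2, against 84.7, 88.8 and 82 CPM and 86.4, 84.3 and 83.9 CPM in HA-Tnrc6a lysates. It was higher in all 6 knockout lysates, by 0.49 (SE 0.03, adjusted p = 8.9e-18). Ago3 differed by -0.07 (SE 0.07, adjusted p = 0.5) and Ago4 by -0.70 (SE 0.31, adjusted p = 0.085), and neither passed the threshold of an adjusted p under 0.05.

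All 3 GW182 genes rose in the knockout. Tnrc6a, the tagged protein's gene, measured 109, 114 and 108 CPM in experiment 3 and 136, 144 and 133 CPM in experiment 4 without Ago2, against 73.4, 81.7 and 73.6 CPM and 98.1, 101 and 93.3 CPM in HA-Tnrc6a lysates. Its log2 fold change was 0.51 (SE 0.03, adjusted p = 1.7e-17), beside 0.34 (SE 0.04, adjusted p = 1.2e-08) for Tnrc6b and 0.21 (SE 0.03, adjusted p = 1.8e-06) for Tnrc6c. Upf1, the helicase of nonsense-mediated decay that is targeted in neither genotype, differed by -0.01 (SE 0.03, adjusted p = 0.88). Of 20 microRNA biogenesis genes, 4 were higher and 2 lower, near the 15.7% and 15.2% of all genes tested that were higher and lower, and all by small amounts: the chaperone Hsp90ab1 by 0.12, the microprocessor subunits Drosha and Dgcr8 by 0.11 and 0.10, the helicase Ddx5 by 0.08, its paralogue Ddx17 by -0.15 and the editing enzyme Adar by -0.14. Dicer1, which cuts the hairpin precursor, differed by -0.01 (SE 0.03, adjusted p = 0.89).

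Across the transcriptome 6065 of 19641 genes tested passed the threshold, or 30.9%. Of these 3082 were higher without Ago2 (15.7% of the genes tested) and 2983 were lower (15.2%). These shares are the background for each list count of this comparison over both experiments. Most changes were small: 355 genes reached both the threshold and a 2-fold change, 110 higher and 245 lower. Among the 6065 genes, 5787 had the same sign in both experiments, and the 3 knockout lysates did not overlap the 3 HA-Tnrc6a lysates in either experiment for 2930, while 3326 of all genes tested were separated that way. Without the library that stood apart, 5714 genes passed, 3092 higher and 2622 lower. In experiment 3 alone 3382 passed, 1868 higher and 1514 lower. List counts of those fits are to be read beside these numbers.

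**Figure D1:**
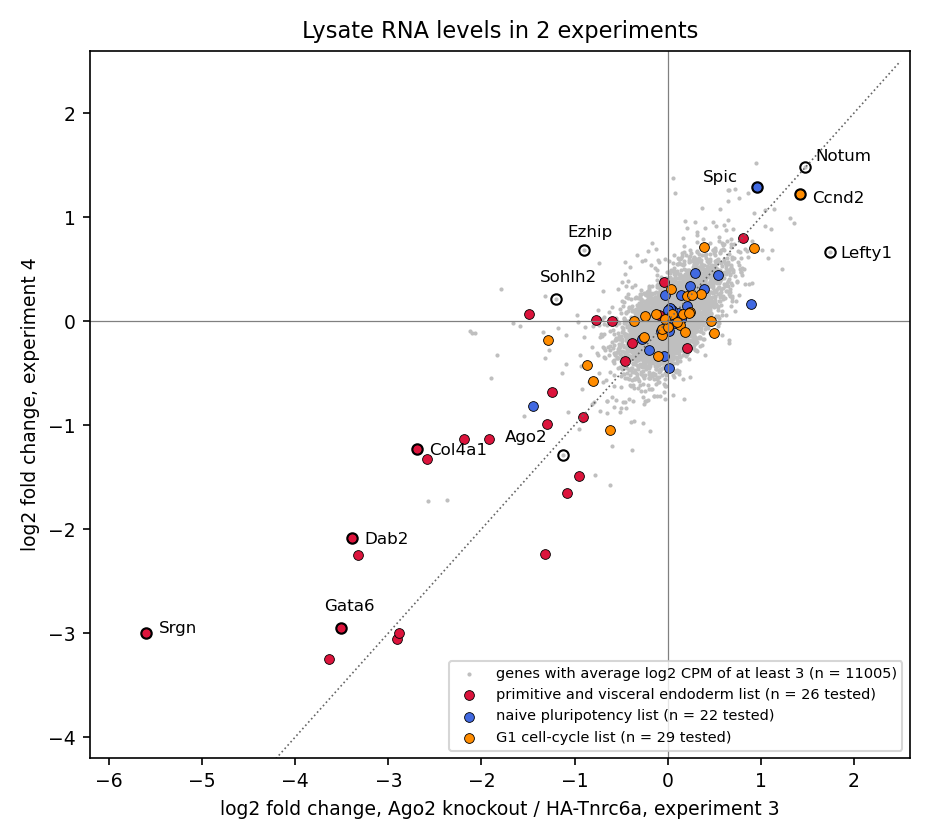
Log2 fold change of Ago2 knockout over HA-Tnrc6a lysates in experiment 3 (x axis) and experiment 4 (y axis). Grey points are genes with an average log2 CPM of at least 3, coloured points are all tested members of 3 gene lists, open circles mark named genes, and the dotted line marks equal values. Gata6 and Notum lie near the line, whereas Ezhip lies below 0 in experiment 3 and above 0 in experiment 4.

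Genes of the extraembryonic endoderm were mostly lower without Ago2. Primitive endoderm is the lineage that separates from the naive epiblast in the blastocyst under FGF signalling, and embryonic stem cell cultures in serum hold a small number of cells with its transcripts. Of 26 tested members of the primitive and visceral endoderm list, 19 were lower and 1 was higher without Ago2, against 15.2% and 15.7% of all genes. The median log2 fold change of the 26 was -1.29, beside -0.01 over all genes tested, and it was -1.30 in experiment 3 and -1.13 in experiment 4. Without the library that stood apart, 20 were lower.

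The transcription factors that specify the lineage were among the members that fell. Gata6, which antagonises Nanog in the inner cell mass, measured 0.364, 0.314 and 0.491 CPM in experiment 3 and 0.719, 0.95 and 1.17 CPM in experiment 4 without Ago2, against 3.37, 5 and 4.92 CPM and 8.35, 6.64 and 7.06 CPM in HA-Tnrc6a lysates. Every knockout lysate was below every HA-Tnrc6a lysate in both experiments, and Gata6 changed by -3.23 (SE 0.17, adjusted p = 8.2e-20). Sox17, a factor of definitive and primitive endoderm, measured 0.416, 0.188 and 0.491 CPM in experiment 3 and 0.419, 0.412 and 0.326 CPM in experiment 4 without Ago2, against 2.95, 2.94 and 2.43 CPM and 3.61, 2.86 and 3.18 CPM in HA-Tnrc6a lysates. The groups again did not overlap, and the change was -2.98 (SE 0.21, adjusted p = 1.7e-15).

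The other endoderm factors moved the same way. Gata4, the partner of Gata6, measured 4.53 ± 0.518 and 3.86 ± 0.0439 CPM (mean ± SD, n = 3) without Ago2 in experiments 3 and 4, against 8.7 ± 0.321 and 10.8 ± 0.497 CPM with it. It changed by -1.22 (SE 0.09, adjusted p = 8.4e-15). Foxq1 fell by 2.94 and Sox7 by 1.66 on the log2 scale, and Foxa2, which had no counts in 2 of the knockout lysates and reached at most 1.06 CPM in the 12, by 2.79. Pdgfra, the receptor used to isolate primitive endoderm, measured 1.46, 1.5 and 2.15 CPM in experiment 3 and 1.74, 1.3 and 1.31 CPM in experiment 4 without Ago2, against 4.33, 4.63 and 3.65 CPM and 7.76, 6.97 and 5.82 CPM in HA-Tnrc6a lysates. It was lower in all 6 knockout lysates, with a change of -1.78 (SE 0.14, adjusted p = 3.2e-14).

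Endocytic and basement-membrane genes of the lineage fell as well. Dab2, an adaptor for endocytosis that acts with the receptor Cubn, lies on chromosome 15 (6299788 to 6440715) and measured 1.46, 1.69 and 2.64 CPM in experiment 3 and 3.48, 2.82 and 2.07 CPM in experiment 4 without Ago2, against 19.6, 19.8 and 20.2 CPM and 12.8, 10.6 and 11.7 CPM in HA-Tnrc6a lysates. Its groups were far apart, with a change of -2.73 (SE 0.11, adjusted p = 6.5e-24). Cubn fell by 3.44 and its partner Amn changed by -1.14. The proteoglycan core Srgn had 0.156, 0.126 and 0.184 CPM without Ago2 in experiment 3 against 10.1, 7.88 and 5.29 CPM with it, and 0.33, 0.222 and 0.163 against 2.06, 2.33 and 1.39 CPM in experiment 4, a change of -4.30 on average. Pth1r, a receptor of parietal endoderm differentiation, fell by 1.52 and the keratin Krt19 by 0.91.

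The type IV collagen chains Col4a1 and Col4a2, which form the scaffold of basement membranes, were lower too. Col4a1 measured 18.1, 16.9 and 17.4 CPM in experiment 3 and 38.7, 42.1 and 40.4 CPM in experiment 4 without Ago2, against 114, 113 and 111 CPM and 94.8, 101 and 88 CPM in HA-Tnrc6a lysates. Col4a2 measured 9.46, 7.72 and 5.89 CPM in experiment 3 and 16.4, 17 and 14.2 CPM in experiment 4 without Ago2, against 48.9, 47.2 and 43.3 CPM and 39.8, 39 and 39.7 CPM in HA-Tnrc6a lysates. Neither gene's groups overlapped, and the changes were -1.96 (SE 0.04, adjusted p = 2.5e-36) and -1.96 (SE 0.06, adjusted p = 3.0e-25). Of the laminin chains that assemble beside them, Lama1 fell by 0.96 and Lamb1 by 0.42, while Lamc1 differed by -0.02 (SE 0.04, adjusted p = 0.81).

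Col4a1 and Col4a2 lie head to head on chromosome 8 in GRCm38, Col4a1 on the minus strand at 11198423 to 11312889 and Col4a2 on the plus strand at 11312805 to 11449287. Their 5′ ends overlap, and whether counting used strand is not given in the sources used here, so reads in the overlap cannot be assigned from these values. The pair is shown because both chains fell by nearly the same amount and their RefSeq promoter windows, from 250 bases before to 50 bases after the transcript start that RefSeq's window uses, share 78 bases. For Col4a1 that start lies inside the outer end of the gene given above, so the shared length belongs to these windows and not to the gene ends. Each window is printed 5′ to 3′ on its own gene's strand (GRCm38.p6), with the shared bases in capitals.
Col4a1, chr8:11312777-11313076, minus strand: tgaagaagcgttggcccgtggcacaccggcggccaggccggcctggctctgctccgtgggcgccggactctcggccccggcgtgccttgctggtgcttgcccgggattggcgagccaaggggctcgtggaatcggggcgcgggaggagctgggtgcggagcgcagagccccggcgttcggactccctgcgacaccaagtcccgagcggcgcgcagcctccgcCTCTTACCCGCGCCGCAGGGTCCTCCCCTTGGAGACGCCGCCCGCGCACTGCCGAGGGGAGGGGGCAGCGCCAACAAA
Col4a2, chr8:11312555-11312854, plus strand: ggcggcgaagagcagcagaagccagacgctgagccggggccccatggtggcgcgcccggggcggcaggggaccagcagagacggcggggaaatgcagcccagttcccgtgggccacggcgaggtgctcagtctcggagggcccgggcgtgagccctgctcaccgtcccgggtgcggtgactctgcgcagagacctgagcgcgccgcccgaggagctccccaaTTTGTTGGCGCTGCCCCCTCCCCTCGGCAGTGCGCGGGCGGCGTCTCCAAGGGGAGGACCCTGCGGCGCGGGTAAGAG
The capitals of the pair are the reverse complement of each other, and the shared stretch runs from 11312777 to 11312854.

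Not all of the list followed. Fst, an activin-binding protein and its only member to rise, measured 2.86, 2.76 and 3.56 CPM in experiment 3 and 12.8, 11.4 and 11.6 CPM in experiment 4 without Ago2, against 1.68, 1.75 and 1.75 CPM and 7.17, 7.49 and 5.84 CPM in HA-Tnrc6a lysates, a change of 0.80 (SE 0.12, adjusted p = 4.9e-07). Hnf4a, Cited1, Plat, Apoe, Lamc1 and Thbd did not pass, with values from -0.71 for Cited1 to 0.17 for Thbd. Sparc fell by 0.30 on average, with -0.60 in experiment 3 and 0.00 in experiment 4.

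Whole marker lists were summed beside this result. The summed level of the 6 primitive endoderm markers, Gata4, Gata6, Sox17, Sox7, Pdgfra and Dab2, was 8.94 to 10.6 CPM in experiment 3 and 10.2 to 11.98 CPM in experiment 4 without Ago2, against 41.6 to 44.4 and 41.8 to 47.1 CPM with it. In bulk lysates fewer cells of a type and less RNA per cell cannot be told apart. Of 7 fibroblast markers 4 were in the table (Col1a1, Col1a2, Thy1 and Pdgfrb), and their summed level was lower too, at 37.6 to 41.8 against 48.7 to 53.3 CPM in experiment 3 and 30.3 to 34.3 against 39.7 to 40.6 CPM in experiment 4. The broader mesenchymal and fibroblast list, by contrast, had 5 of 21 genes higher and 5 lower. The part of either cell class in the fall of the endoderm list was not tested.

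**Figure D2:**
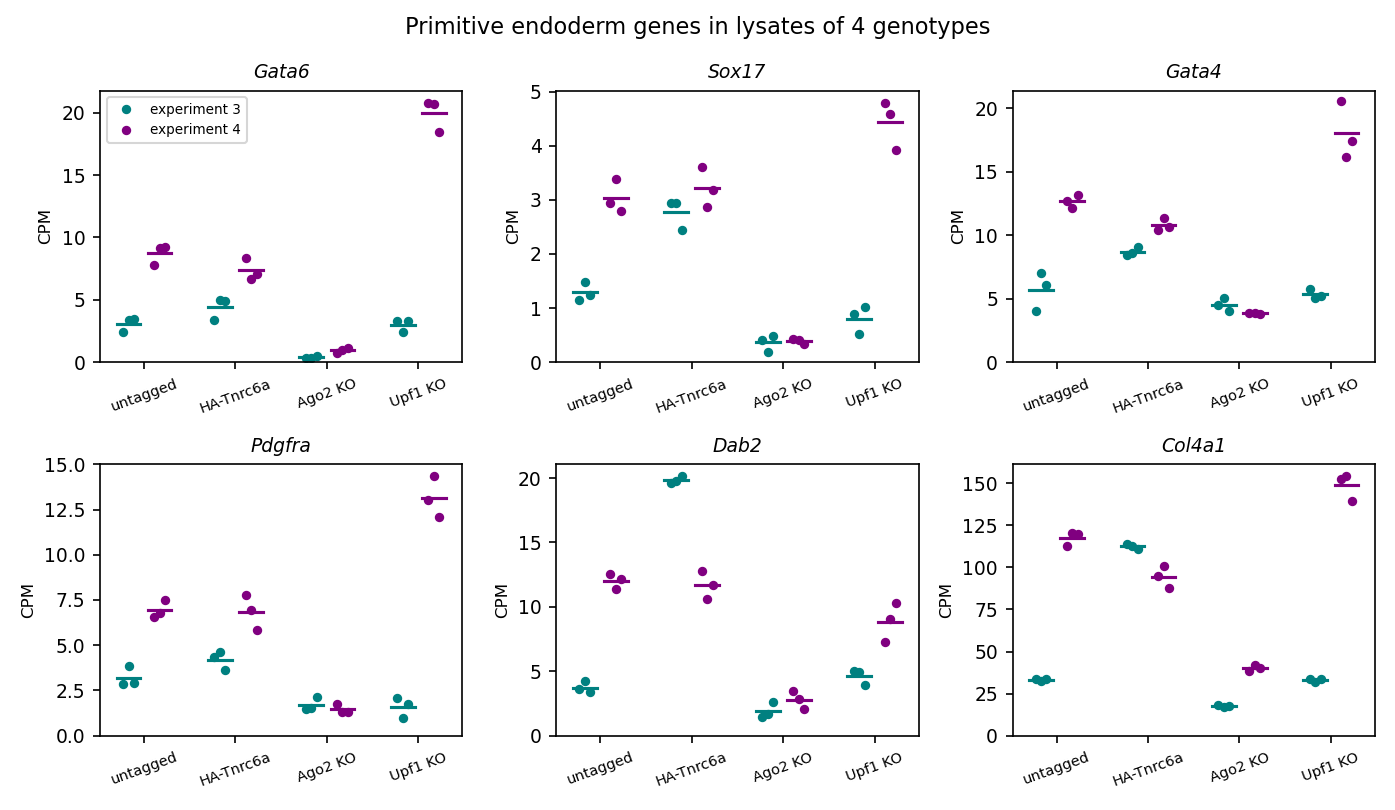
CPM of 6 endoderm genes in every input library (points), by genotype on the x axis and by experiment in colour, with bars at the group mean of 3. In each panel the Ago2 knockout lysates lie below the HA-Tnrc6a lysates of the same experiment, and the untagged and Upf1 knockout means lie higher in experiment 4 than in experiment 3.

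Pluripotency genes moved little and mostly upward. Of 15 core pluripotency genes 7 were higher and 1 was lower, and of 22 naive pluripotency genes 12 were higher and 5 lower, with medians of 0.05 and 0.08. Nanog (chromosome 6, 122707489 to 122714633), the factor that opposes Gata6, measured 824, 845 and 859.9 CPM in experiment 3 and 937, 944 and 949 CPM in experiment 4 without Ago2, against 694, 706 and 726 CPM and 791, 792 and 788 CPM in HA-Tnrc6a lysates. The groups did not overlap, although the change was only 0.24 (SE 0.02, adjusted p = 1.5e-11). Pou5f1, the defining factor of the state, differed by -0.01 (SE 0.03, adjusted p = 0.74). Sox2, its partner, rose by 0.16, Sall4 by 0.19, Dppa2 by 0.21 and L1td1 by 0.20, while the de novo methyltransferase Dnmt3b fell by 0.19.

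Naive genes moved in both directions. Klf2, a Krüppel-like factor of the ground state, measured 508, 539.7 and 523 CPM in experiment 3 and 388, 384 and 416 CPM in experiment 4 without Ago2, against 357, 371 and 346 CPM and 312, 278 and 281 CPM in HA-Tnrc6a lysates. It rose by 0.49 (SE 0.03, adjusted p = 2.8e-18), while its relatives Klf4 and Klf5 fell by 0.24 and 0.22. Spic, a factor of the naive state, measured 10, 11 and 11.8 CPM in experiment 3 and 6.44, 6.14 and 5.3 CPM in experiment 4 without Ago2, against 5.47, 6.07 and 5.29 CPM and 1.97, 2.63 and 2.66 CPM in HA-Tnrc6a lysates. It had the largest rise of the list, at 1.12 (SE 0.10, adjusted p = 3.7e-12), and Fbxo15, Prdm14, Tfcp2l1 and Esrrb rose by 0.38, 0.35, 0.29 and 0.20. Nlrp14 fell by 1.13 and Sox15 by 0.18.

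Formative and primed genes went both ways, 5 of 17 higher and 5 lower. The zinc-finger factors Zic2 and Zic5 rose by 0.98 and 0.59, Fgf15 by 0.90, Lef1 by 0.76 and Foxd3 by 0.34. Zic2 measured 36.9, 39 and 38 CPM in experiment 3 and 30.6, 28.7 and 28.1 CPM in experiment 4 without Ago2, against 21.7, 22.7 and 21.8 CPM and 13.6, 13.6 and 11.2 CPM in HA-Tnrc6a lysates, without overlap. Pou3f1, the POU factor of the primed epiblast, fell by 0.54, and Otx2 by 0.20. Of 11 neuroectoderm genes 9 were higher and 1, Map2, was lower, with a median of 0.47. With a stricter filter (minimum count 50) 6 were higher and 1 lower. Map2 lost the call in 5 of the 12 fits that left out 1 library. Among them Nes, an intermediate filament of neural progenitors, measured 9.09, 9.91 and 9.64 CPM in experiment 3 and 7.37, 7.35 and 8.13 CPM in experiment 4 without Ago2, against 6.19, 6.63 and 6.14 CPM and 5.91, 5.52 and 6.28 CPM in HA-Tnrc6a lysates, a rise of 0.47 (SE 0.09, adjusted p = 2.7e-05). Sox1, an early neural Sox gene, rose by 0.42, the adhesion molecules Ncam1 and Nrcam by 0.72 and 0.98, and Pax6, which reached at most 1.71 CPM, by 1.25. Of 15 mesoderm genes 3 were higher and 1 lower.

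Germline genes that DNA methylation silences were mostly lower: 17 of 25 passed in that direction and 8 did not pass, with a median of -0.43. Rhox5, an X-linked homeobox gene, measured 5.3, 5.08 and 6.32 CPM in experiment 3 and 5, 6.21 and 5.3 CPM in experiment 4 without Ago2, against 15.5, 16.4 and 16.5 CPM and 9.96, 10.4 and 10.6 CPM in HA-Tnrc6a lysates. Its groups did not overlap and it changed by -1.23 (SE 0.08, adjusted p = 2.7e-16). Dazl, an RNA-binding protein of germ cells, fell by 0.82, the piRNA factors Piwil4, Mov10l1 and Piwil2 by 1.01, 0.82 and 0.61, and the meiotic gene Sycp2 by 0.69. The list median was -0.62 in experiment 3 and -0.24 in experiment 4. Of the methylation machinery itself, Dnmt1 rose by 0.19, and Dnmt3b and its cofactor Dnmt3l fell by 0.19 and 0.17, Dnmt3l with -0.47 in experiment 3 and 0.14 in experiment 4.

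Signalling lists held both genes that rose and genes that fell. Of 27 Wnt genes 8 were higher and 6 lower. The count of lower Wnt genes was 3 without replicate 2 of either genotype in experiment 3, and 1 in experiment 3 alone. Over all genes, experiment 3 alone gave 1514 lower in place of 2983. Notum (chromosome 11, 120653788 to 120661193), a secreted enzyme that strips the lipid from Wnt ligands and is itself a target of the pathway, measured 25.9, 28.6 and 26.5 CPM in experiment 3 and 36.5, 31.9 and 34.1 CPM in experiment 4 without Ago2, against 9.86, 11.3 and 8.04 CPM and 13.5, 12.8 and 10.3 CPM in HA-Tnrc6a lysates. It had the largest rise of the well-expressed genes that were separated in both experiments, at 1.48 (SE 0.07, adjusted p = 8.4e-21). Among the pathway's nuclear factors Lef1 rose by 0.76, Tcf7l1 by 0.26 and Tcf7 by 0.26, while the feedback target Axin2 fell by 0.20 (experiment 3 0.04, experiment 4 -0.43) and beta-catenin (Ctnnb1) by 0.08. Axin2 lost the call in 9 of the 12 fits that left out 1 library, with values of -0.20 to -0.15. Dkk1, a secreted Wnt antagonist, had 0.156, 0.188 and 0 CPM without Ago2 against 0.721, 1.19 and 0.794 CPM in experiment 3 and 0.24, 0.095 and 0.0816 against 0.764, 0.92 and 0.839 CPM in experiment 4, a change of -2.74 (SE 0.40, adjusted p = 3.3e-07).

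In the Nodal and TGF-beta list 11 of 24 genes were higher and 4 lower, with a median of 0.16. Lefty1, a Nodal antagonist that Nodal itself induces, measured 25.7, 20.9 and 21.2 CPM in experiment 3 and 5.6, 5.79 and 5.28 CPM in experiment 4 without Ago2, against 7.7, 6.19 and 6.3 CPM and 3.67, 3.19 and 3.56 CPM in HA-Tnrc6a lysates. It was higher in all 6 knockout lysates by 1.21 (SE 0.09, adjusted p = 5.5e-15), and the change was 1.74 in experiment 3 and 0.67 in experiment 4. The ligands Nodal and Gdf3 rose by 0.32 and 0.58, and the transducers Smad2 and Smad3 and the receptor Tgfbr1 by 0.27, 0.36 and 0.29. Smad4 fell by 0.22 and the ligand Tgfb1 by 0.24.

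Of 25 FGF-ERK genes 12 were lower and 6 higher, with a median of -0.15, and 8 were lower without the library that stood apart. Those that fell included feedback inhibitors of the pathway. Spry1 measured 13, 12.9 and 13.6 CPM in experiment 3 and 10.4, 10.9 and 11.6 CPM in experiment 4 without Ago2, against 20.6, 19.14 and 18.7 CPM and 17.1, 17.2 and 16.3 CPM in HA-Tnrc6a lysates, without overlap and with a change of -0.60 (SE 0.06, adjusted p = 1.6e-10). Its relatives Spry2 and Spry4 fell by 0.37 and 0.34, the ERK phosphatases Dusp4, Dusp5 and Dusp6 by 0.47, 0.31 and 0.15, and the target Etv4 by 0.36. The receptors Fgfr4, Fgfr3 and Fgfr2 fell by 0.75, 0.53 and 0.20, and the pleckstrin-domain gene Phlda1 by 0.62. The ligand genes Fgf15 and Fgf17 rose by 0.90 and 0.64, Fgf4, the main ligand of stem cells, by 0.08, and the early gene Egr1 by 0.24. In single experiments Egr1 was 0.66 in experiment 3 and -0.18 in experiment 4, and Dusp6 was 0.10 and -0.40. Without the library that stood apart Dusp6 (-0.0916) and Fgfr3 (-0.41) did not pass.

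LIF and BMP genes were 9 higher and 7 lower of 24. Id1, a BMP-induced inhibitor of helix-loop-helix factors, measured 16.1, 14.6 and 10.1 CPM in experiment 3 and 28.7, 27.8 and 29.5 CPM in experiment 4 without Ago2, against 26.2, 28.6 and 24.2 CPM and 57.5, 57 and 61.3 CPM in HA-Tnrc6a lysates, and fell by 1.00 (SE 0.06, adjusted p = 4.2e-13). Its paralogues Id3 and Id4 rose by 0.44 and 0.52, and the inhibitory Smad6 by 0.94. The receptor chains Il6st and Lifr rose by 0.55 and 0.20, whereas Socs3, the feedback inhibitor that STAT3 induces, fell by 0.38 and Bmp4 by 0.44.

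**Figure D3:**
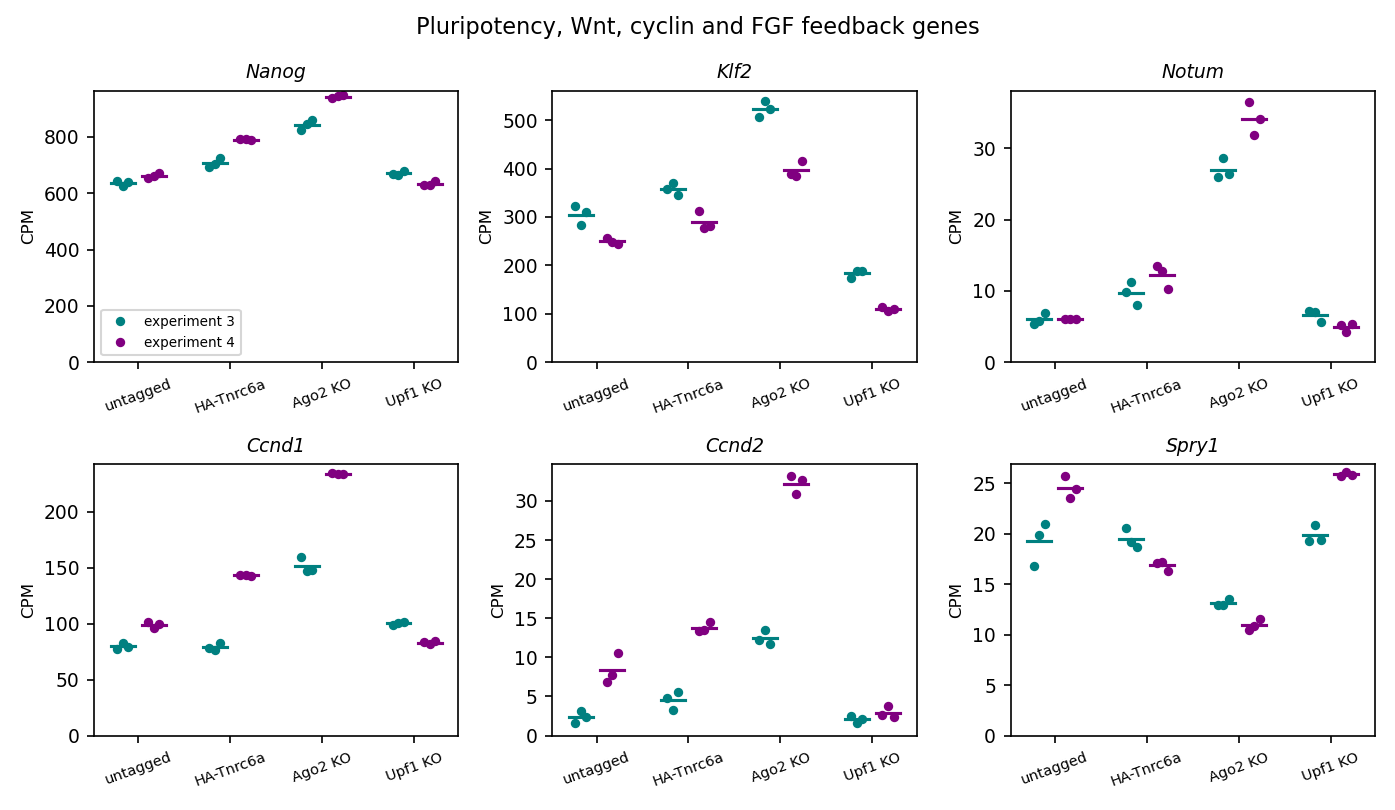
CPM of 6 genes in every input library (points), by genotype on the x axis and by experiment in colour, with bars at the group mean of 3. Nanog, Klf2, Notum, Ccnd1 and Ccnd2 lie higher in the Ago2 knockout than in HA-Tnrc6a lysates of the same experiment, and Spry1 lies lower.

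Of 29 genes of the G1 cell-cycle list 12 were higher and 6 lower. Ccnd2 (chromosome 6, 127125162 to 127152188), a D-type cyclin that drives entry into S phase, measured 12.3, 13.5 and 11.7 CPM in experiment 3 and 33.1, 30.8 and 32.6 CPM in experiment 4 without Ago2, against 4.81, 3.31 and 5.61 CPM and 13.3, 13.5 and 14.5 CPM in HA-Tnrc6a lysates. Ccnd1 measured 159.7, 147 and 148 CPM in experiment 3 and 234, 234 and 234 CPM in experiment 4 without Ago2, against 78.5, 76.5 and 83 CPM and 144, 143 and 142 CPM in HA-Tnrc6a lysates. Both were separated in both experiments and rose by 1.32 (SE 0.08, adjusted p = 1.8e-18) and 0.81 (SE 0.03, adjusted p = 2.6e-26). The kinases that pair with them, Cdk4 and Cdk6, rose by 0.12 and 0.23, the retinoblastoma gene Rb1 by 0.55 and the inhibitor Cdkn1a by 0.17. In experiments 3 and 4 Cdk6 was 0.46 and 0.01, and Cdkn1a was 0.04 and 0.31. Cdkn2a, which encodes another inhibitor, fell by 0.69 and E2f2 by 0.83. In the S phase and mitosis list 8 of 31 were higher and 11 lower. Those higher included the replication genes Mcm3 (0.18) and Pcna (0.13), and those lower included the mitotic genes Aurkb (-0.22), Birc5 (-0.20) and Ccnb2 (-0.19).

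Of 28 epithelial genes 13 were lower and 4 higher, with a median of -0.21. Cldn6, a tight-junction claudin of stem cells, measured 17.5, 17.6 and 17.1 CPM in experiment 3 and 3.33, 3.61 and 4.43 CPM in experiment 4 without Ago2, against 32.5, 30.9 and 25.9 CPM and 10.3, 11.4 and 10.1 CPM in HA-Tnrc6a lysates, and changed by -1.13 (SE 0.07, adjusted p = 1.4e-16). Esrp1, a splicing factor of epithelia, measured 17.4, 19.8 and 18.5 CPM in experiment 3 and 2.1, 2.06 and 1.71 CPM in experiment 4 without Ago2, against 29, 30.6 and 25 CPM and 5.32, 6.8 and 5.35 CPM in HA-Tnrc6a lysates, and changed by -1.10 (SE 0.09, adjusted p = 4.3e-14). Cldn7 fell by 1.47, the polarity gene Crb3 by 1.02, the keratins Krt8 and Krt18 by 0.44 and 0.43, and E-cadherin (Cdh1) and Epcam by 0.21 and 0.20. Cdh1 and Epcam were -0.45 and -0.49 in experiment 4, against 0.02 and 0.09 in experiment 3. Krt8, Krt18 and Krt19 are also made by extraembryonic endoderm, and Krt19 stands in both lists. In experiment 3 alone 7 of the 28 were lower, where 1514 of all genes were lower in place of 2983.

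The glycolysis and hypoxia list names 38 genes, which matched 39 gene entries. Of these 39 entries 18 were lower and 5 higher, with a median of -0.12. Without Ago2 knockout replicate 3 of experiment 4 or HA-Tnrc6a replicate 2 of experiment 3, 2 were higher, and 3 were without Ago2 knockout replicate 2 or HA-Tnrc6a replicate 1 or 2 of experiment 4. The collagen prolyl hydroxylase P4ha2 measured 23.9, 21.9 and 19.8 CPM in experiment 3 and 8.09, 8.2 and 8.46 CPM in experiment 4 without Ago2, against 36.5, 35.3 and 36 CPM and 16.9, 14 and 13.9 CPM in HA-Tnrc6a lysates, without overlap, and fell by 0.79. Slc2a1, a glucose transporter, fell by 0.33, Eno2 by 0.42, the mitophagy receptor Bnip3 by 0.31 and Vegfa by 0.23. Of 21 genes of the unfolded protein response 13 were higher and 1 lower, by at most 0.38 (Dnajb9). The chaperone Hspa5 measured 418, 399 and 375 CPM in experiment 3 and 350.0, 381 and 356 CPM in experiment 4 without Ago2, against 327, 332 and 296 CPM and 314, 330.1 and 327 CPM in HA-Tnrc6a lysates, a rise of 0.23 (SE 0.03, adjusted p = 1.3e-07). Herpud1 fell by 0.26. In the integrated stress response list 6 of 31 were higher and 11 lower, with Ddit3 down by 0.67. The apoptosis list had 3 of 28 higher and 11 lower, among them the BH3-only genes Pmaip1 (-0.62) and Bid (-0.29), and 8 lower without the library that stood apart.

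Of 36 lysosome and autophagy genes 13 were higher and 4 lower, with their regulator Tfeb up by 0.44 and the membrane protein Lamp2 by 0.41. In experiment 3 alone 6 were higher, and without the library that stood apart 7 were lower. Over all genes, experiment 3 alone gave 1868 higher in place of 3082. Of 24 interferon and antiviral genes 10 were higher and 4 lower, again with 6 higher in experiment 3 alone, where 0 were lower. Ifitm3, a membrane protein that restricts virus entry, rose by 0.70, its neighbour Ifitm1 by 0.60 and the antiviral RNA-binding protein Zc3hav1 by 0.57, while H2-K1 fell by 0.41. Cytosolic ribosomal protein genes gave 4 higher and 4 lower of 86, below the shares of all genes.

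**Figure D4:**
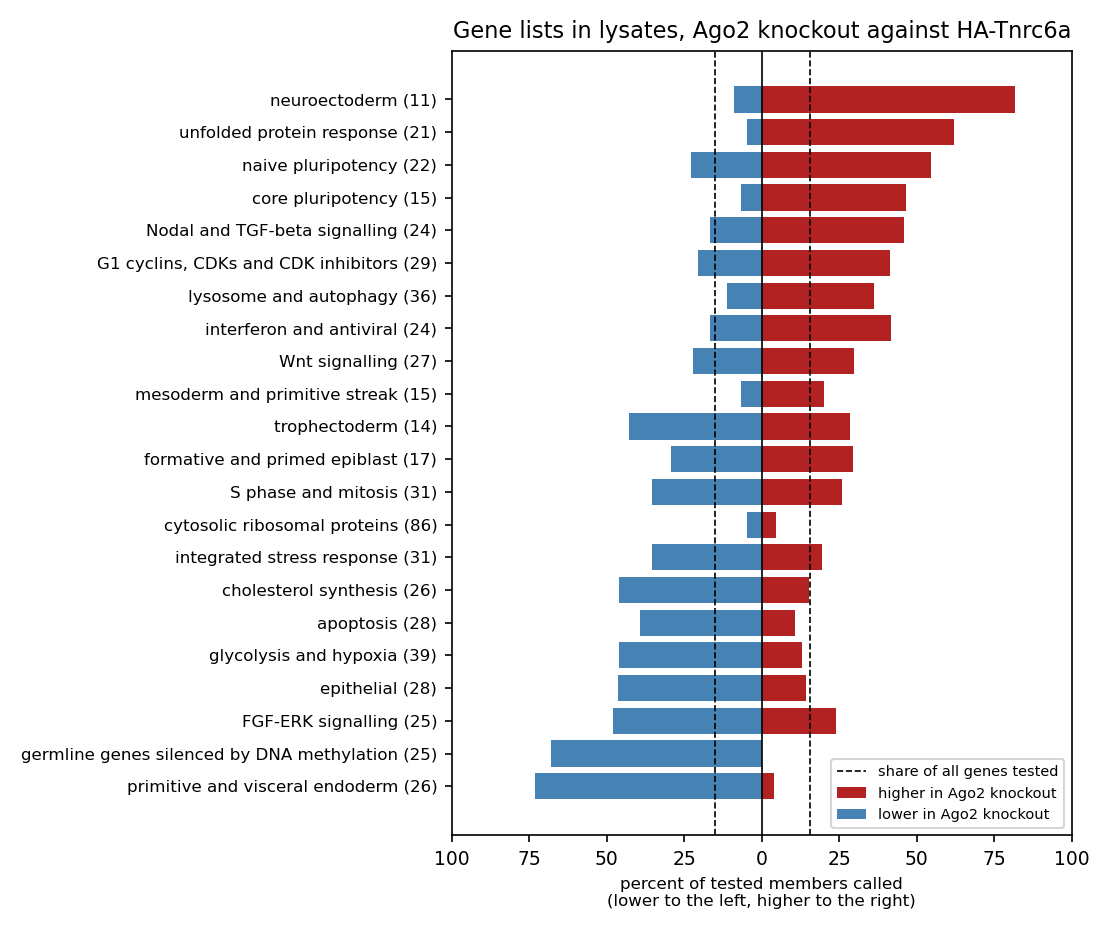
Percent of the tested members of 22 gene lists that were lower (to the left) or higher (to the right) in Ago2 knockout than in HA-Tnrc6a lysates, with the number tested in brackets. Dashed lines mark 15.2% lower and 15.7% higher over all genes tested. The endoderm and germline lists reach farthest to the left and the neuroectoderm list farthest to the right.

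Textbook targets of stem cell microRNAs were 12 higher and 6 lower of 30, with a median of 0.10. Lefty1 and the apoptosis gene Ei24 rose by 1.21 and 0.50, the repressor Zeb1 by 0.44, Mycn by 0.31, the BH3-only gene Bcl2l11 by 0.30, Mbd2 by 0.29, Akt1 by 0.25 and Cdkn1a by 0.17. In the other direction, Dkk1, Hmga2, Rbl2, Mbnl2, Nras and Trim71 fell, Hmga2 by 0.29, Rbl2 by 0.18 and Trim71 by 0.11. With each of the 12 libraries left out in turn, Rbl2 and Mbnl2 each lost the call 9 times. Lats2, a kinase of the Hippo pathway, appears as 2 gene entries that may share reads, and neither passed.

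The captures of the same series offered a readout of recovery with HA beads that the lysate calls did not use. Recovery was the log2 ratio of captured to input CPM in HA-Tnrc6a cells. Captures from untagged cells do not enter this ratio, so it includes RNA that the beads hold without a tag. Genes higher without Ago2 in the inputs of experiment 4 alone (n = 2730) had a median recovery of 0.45 in experiment 3, and 34.9% of them were recovered at least 2-fold. Genes lower there (n = 2436) had -0.17 and 14.1%, and genes not called (n = 13036) had -0.09 and 16.9%. With the experiments exchanged, the medians were 0.29 (n = 1865), -0.21 (n = 1498) and -0.14 (n = 14546). Genes higher without Ago2 were also longer, with a median gene length of 4739.5 bases against 3714 for the lower and 3356 for all genes tested, and more abundant, with a median average log2 CPM of 5.32 against 4.37 and 3.58. The part of length, abundance and bead background in the recovery difference was not tested, and no p is given.

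The knockout was also set against the untagged and Upf1 knockout lysates. These comparisons share libraries, so their values stand side by side only. HA-Tnrc6a and untagged lysates, neither of which lacks Ago2, differed at 2990 of 19407 genes (15.4%). Without untagged replicate 1 of experiment 3 they differed at 4151 genes. The endoderm list had 14 of 25 members higher in HA-Tnrc6a than in untagged lysates (7.74% of all genes) and 2 lower (7.67%). Against the untagged lysates the knockout had 18 of 25 lower (18.9% of all genes) and 4 higher (19.3%), and against the Upf1 knockout 18 lower (30.9% of all genes) and 4 higher (31.4%). The mean of the Ago2 knockout was the lowest of the 4 genotypes in both experiments for 14 of the 26, against 14.5% of all genes tested, and it was the highest for 7 of the 11 neuroectoderm genes, against 15.9%. The summed level of Sox1 and Pax6 in experiment 3 was 9.1 to 12.4 CPM in the knockout and 7.37 to 9.8 CPM in untagged lysates. In experiment 4 it was 20.07 to 22.39 CPM in the knockout and 22.49 to 27.27 CPM in untagged lysates.

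Gata6 and Dab2 were set against both references. Untagged lysates held 3.08 ± 0.567 CPM of Gata6 in experiment 3 and 8.74 ± 0.808 CPM in experiment 4 (mean ± SD, n = 3), and the knockout differed from it by -3.09 on the log2 scale. Untagged Dab2 was 3.73 ± 0.477 and 12 ± 0.57 CPM, and the knockout differed from it by -1.54 (adjusted p = 5.3e-10). Against the Upf1 knockout the difference was -3.66 for Gata6 (adjusted p = 9.7e-27) and -1.48 for Dab2 (adjusted p = 1.1e-12). Summed primitive endoderm markers in untagged lysates were 15.8 to 21.01 CPM in experiment 3 and 47.5 to 49.5 CPM in experiment 4, and in Upf1 knockout lysates 15.2 to 18.97 and 70.7 to 73.8 CPM.

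The germline list gave other counts against the untagged and Upf1 knockout lysates. Against untagged lysates the knockout had 5 of 25 higher and 10 lower (19.3% and 18.9% of all genes). HA-Tnrc6a had 12 higher and 2 lower than untagged (7.74% and 7.67% of all genes). Against the Upf1 knockout 11 of 25 were higher and 6 lower (31.4% and 30.9% of all genes), with a median of 0.35. The mean of the Ago2 knockout was the lowest of the 4 genotypes in both experiments for 4 of the 25, against 14.5% of all genes tested. Rhox5 was 0.51 higher in HA-Tnrc6a than in untagged lysates (adjusted p = 3.8e-05), and the knockout differed from untagged by -0.72 (adjusted p = 1.2e-06). Notum and Ccnd2 were higher against untagged lysates too: the knockout exceeded untagged lysates by 2.33 (adjusted p = 3.9e-20) and 2.14 (adjusted p = 1.3e-14). Nanog exceeded untagged by 0.46 and Klf2 by 0.72. Of the glycolysis and hypoxia entries 28 of 39 were lower in the knockout than in untagged lysates (18.9% of all genes). In HA-Tnrc6a 22 of 39 were lower than in untagged lysates (7.67% of all genes).

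**Figure D5:**
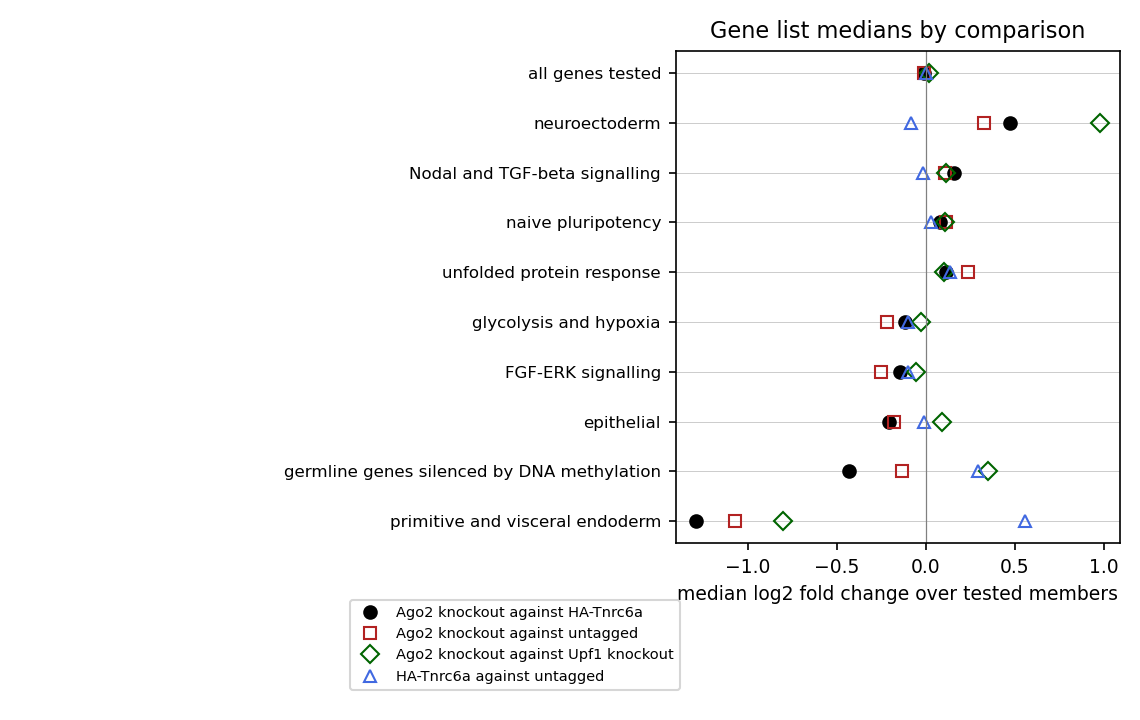
Median log2 fold change (x axis) of the tested members of 9 gene lists and of all genes tested, for 4 comparisons of lysates. The endoderm list is below 0 in the 3 comparisons of the Ago2 knockout and above 0 in HA-Tnrc6a against untagged, and the germline list changes sign with the reference.

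The experiments differed for part of the genes. The effect of the knockout differed between them, by the interaction test of the same fit, for 1166 genes or 5.94%, and of the 6065 genes that passed on average 702 were among these. Ezhip, an inhibitor of Polycomb repressive complex activity, was -0.90 in experiment 3 and 0.69 in experiment 4, a difference of 1.59 (adjusted p = 1.5e-07). Col4a1 was -2.69 and -1.23, Dab2 -3.39 and -2.08, and Dazl -1.59 and -0.05, all of them smaller falls or near 0 in experiment 4. Gata6, Sox17, Notum and Nanog gave no difference that passed, at 0.56 (adjusted p = 0.49), -0.16 (adjusted p = 0.91), 0.01 (adjusted p = 0.98) and 0.01 (adjusted p = 0.94). Labels tie each experiment to no date or batch beyond its number, and depth differed between them.

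Fold changes were also summarised by chromosome. For chromosomes 1 to 19 and X the medians lay between -0.03 and 0.02 on the log2 scale. Among these the lowest was chromosome 15, which carries Ago2 and Dab2, at -0.0337 in experiment 3 and -0.0436 in experiment 4. It had the largest share of genes lower, 23%, and the smallest share higher, 14.3%. Chromosome X had the highest median, and chromosome 18 the largest share higher, 23.8%. Chromosome Y, with 9 genes tested, had a median of 0.08, at -0.17 in experiment 3 and 0.04 in experiment 4. Of 6 tested genes of a Y chromosome list 2 were higher and 3 lower, against 15.7% and 15.2% of all genes. The list median was -0.54, at -1.10 in experiment 3 and 0.01 in experiment 4. HA-Tnrc6a exceeded untagged lysates for 6 of 6 (7.74% of all genes), with a median of 1.91. The knockout exceeded them for 5 of 5 (19.3% of all genes), with a median of 1.39. The cause of this was not tested.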

How the data were processed

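Stranded total RNA libraries of lysates were sequenced by the submitters. The authors deposited raw counts per gene, a scaled signal per gene and a gene length for 20171 genes; STAR 2.7.3a, bcl2fastq 2.20 and the builds GRCm38 and mm10 are named per the submitters' processing notes, and the counting tool and its strand setting are not given in the sources used here. The deposited signal is the count divided by 1 factor per library, and served only as an alternative scaling. Table columns are numbered 1 to 6 for each genotype, and 1 to 3 were read as experiment 3 and 4 to 6 as experiment 4. The table itself names 16427 genes, and gene IDs gave a symbol for 3725 more.

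Counts were tested with edgeR 4.0.16 in R 4.3.3 (TMM, filterByExpr minimum count 10, robust quasi-likelihood fit, two-sided), with 1 coefficient per genotype and experiment, the contrast averaged over both experiments, and Benjamini-Hochberg adjustment over all genes tested at a threshold of 0.05. Untagged and Upf1 knockout inputs entered fits of their own. DESeq2 1.42.0, other scalings and filters, each experiment alone, a replicate block and the omission of each library were alternatives. On data simulated for the main comparison, with 19407 genes left by the count filter there, 50 of 50 genes raised by 1 and 50 of 50 lowered by 1 on the log2 scale were recovered, as were 48 of 50 at 0.5 and 44 of 50 at -0.5, with 8 false calls. The simulation gave every gene the same dispersion, no difference between experiments and no library that stood apart. Only genes with a mean count over 50 were changed. These counts are therefore not error rates of the real comparison. No replicates were near-identical. Same-numbered replicates deviated together weakly, with correlations of -0.03 to 0.15, so the numbers were not taken to pair them.

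Members and gene lists were chosen with earlier results of these data known, so a list's count is a description without a test. Genes named are Ago2, Tnrc6a and Upf1; the 12 largest rises and falls with an average log2 CPM of at least 3, 1 sign and separated groups in both experiments; up to 5 called members per list and those needed to account for it; and 5 genes per direction for the difference between experiments. Others named were chosen after their values were seen. Coordinates and promoter windows are RefSeq's on GRCm38.p6.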

Additional observations from a re-analysis of the deposited data

Results flagged for a closer look

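Of 199 genes named and tested, 57 changed differently in the 2 experiments by the interaction test of the edgeR fit, with an adjusted p under 0.05, against 5.94% of all genes tested. Values are the log2 fold change of Ago2 knockout over HA-Tnrc6a in experiment 4 minus that in experiment 3, and genes of the rule that asks for the largest such differences were chosen for them. The difference was above 0 for 30 and below 0 for 27, and 17 had opposite signs in the 2 experiments.

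Opposite signs were read from the values alone, without a threshold in either experiment, and some values lay near 0. Genes below 0 in experiment 3 and above 0 in experiment 4, with the fold change in each, were Zfy2 (-2.24 and 0.01, difference 2.25), Ezhip (-0.90 and 0.69, difference 1.59), Scml2 (-1.31 and 0.24, difference 1.56), Sohlh2 (-1.20 and 0.22, difference 1.41), Ccn1 (-0.98 and 0.18, difference 1.16), Bmi1 (-0.88 and 0.06, difference 0.93), Hrk (-0.92 and 0.00, difference 0.92), H19 (-0.82 and 0.03, difference 0.85), Chac1 (-0.68 and 0.04, difference 0.72) and Dnmt3l (-0.47 and 0.14, difference 0.62). Genes above 0 in experiment 3 and below 0 in experiment 4 were Cdh1 (0.02 and -0.45, difference -0.46), Apoe (0.20 and -0.26, difference -0.46), Dusp6 (0.10 and -0.40, difference -0.50), Epcam (0.09 and -0.49, difference -0.58), Egr1 (0.66 and -0.18, difference -0.84), Lefty2 (0.66 and -0.21, difference -0.87) and Tob1 (0.17 and -0.75, difference -0.93).

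Falls that were smaller in experiment 4 differed as follows: Srgn 2.602, Dazl 1.54, Col4a1 1.46, Pnma5 1.34, Dab2 1.30, Col4a2 1.26, Sox7 1.05, Piwil2 0.96, Xlr3b 0.84, Xlr3a 0.66, Mov10l1 0.64, Rhox5 0.63, Sparc 0.60 and Lama1 0.56. Rises that were larger in experiment 4 were those of Prmt8 0.57, Ncam1 0.47, Zic2 0.41, Eprn 0.37, Zc3hav1 0.34 and Cdkn1a 0.27. Falls that were larger in experiment 4 were those of Ddx17 -0.17, Gas5 -0.20, Spry2 -0.35, H2-K1 -0.40, Tgfb1 -0.41, Spry4 -0.49, Hmga2 -0.53, Cldn6 -0.69, Pmaip1 -0.71, Pdgfra -0.93, Esrp1 -0.96 and Crb3 -1.24. Rises that were smaller in experiment 4 were those of Ifitm1 -0.21, Ccnd1 -0.22, Calcoco2 -0.32, Dnajb9 -0.38, Rragd -0.41, Cdk6 -0.46, Fgf17 -0.54 and Lefty1 -1.08.

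Endoderm genes stood on both sides: the falls of Srgn, Dab2, Col4a1, Col4a2, Sox7 and Lama1 were larger in experiment 3 and that of Pdgfra in experiment 4. HA-Tnrc6a lysates of experiment 3 held the library with 3.75% ribosomal RNA counts, and without it 999 genes differed between experiments in place of 1166. Counts of each pair of replicates were compared by a chi-square value averaged over genes, without a p. In experiment 3 the HA-Tnrc6a pairs with replicate 3 gave 31 and 26.11, against 2.542 for the other pair. Untagged pairs with replicate 1 of experiment 3 gave 9.57 and 8.42, against 1.909. No formal test for single libraries far from the others was run.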

How the results depend on the processing

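The count of 6065 genes was 3382 in experiment 3 alone, the shallower one, and 355 when a 2-fold change was also asked. Experiment 3 alone gave 1868 higher and 1514 lower, and experiment 4 alone 2806 and 2464. List counts of 1 experiment are to be read beside these.  The count of 6065 genes also varied with the processing. It ranged from 5478 to 5948 when each library was left out, and was 5712 with DESeq2, 6050 with RLE size factors, 5968 with library totals, 6044 with the authors' scaling, 6070 without a count filter and 5790 with a minimum count of 50. The difference between experiments called 826 to 1307 genes with 1 library left out. Against untagged, HA-Tnrc6a gave 652 in experiment 3 alone, 200 at 2-fold and 2348 to 4151 with 1 library left out; the knockout gave 2653, 618 and 6708 to 7910, and against Upf1 knockout 1460 at 2-fold and 11667 to 11933. Without HA-Tnrc6a replicate 3 of experiment 3, HA-Tnrc6a against untagged gave 2567. The 4151 came without untagged replicate 1 of experiment 3, and the next highest count was 2802. The 7910 of the knockout against untagged came without that same library. The cause of these differences was not tested. The replicate block gave 6494 for the knockout and 1584 for the difference between experiments.

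Among the lists, experiment 3 alone gave 7 epithelial genes lower, 6 lysosomal and 6 interferon genes higher and 7 apoptosis genes lower, and experiment 4 alone 7 apoptosis genes lower. At 2-fold none was left for core pluripotency, FGF-ERK, the unfolded protein response, glycolysis, lysosome, GW182, interferon and apoptosis (0 each), 1 each for naive, Nodal and G1, 2 each for neuroectoderm, Wnt and germline, and 4 epithelial. Leaving out 1 library gave 8 to 11 apoptosis, 6 to 7 core, 12 to 13 epithelial, 8 to 12 FGF-ERK, 11 to 13 G1, 16 to 17 germline, 17 to 19 glycolysis, 3 GW182, 7 to 10 interferon, 11 to 14 lysosomal, 10 to 13 naive, 8 to 9 neuroectoderm, 9 to 12 Nodal, 19 to 20 endoderm, 11 to 15 unfolded protein response and 8 to 9 Wnt genes. With library totals 2 glycolysis genes were higher and 2 core genes lower. No other count of these lists, in either direction, moved by over 1.5 times with RLE, library totals, the authors' scaling, another filter or DESeq2. All 24 inputs gave 3 Wnt genes lower and 3 glycolysis genes higher, and the replicate block 2 core genes lower. Core genes lower were also 2 without Ago2 knockout replicate 1 of experiment 3. In the direction with fewer calls, experiment 3 alone gave 1 Wnt, 3 naive, 2 Nodal and 2 lysosomal genes lower and 3 glycolysis, 2 endoderm and 1 apoptosis genes higher, and experiment 4 alone 4 core genes lower and 3 FGF-ERK, 2 epithelial and 2 germline genes higher. Experiment 3 alone also gave 0 interferon and 0 neuroectoderm genes lower, and experiment 4 alone 0 genes of the unfolded protein response lower. Over chromosomes 1 to 19 and X the lowest median was -0.0246 for genes with an average log2 CPM of at least 3 and -0.0436 in experiment 4, the highest 0.042 for the former. Chromosome Y, outside this range, had 0.16 over 5 such genes.

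Over 287 genes, 6012 alternative values kept direction and side of the threshold, 211 lost the call, 11 gained it and 39 turned. In experiment 3 alone these were Upf1 (0.08632), Tob1 (0.17), Apoe (0.20), Axin2 (0.03783), Cdh1 (0.01774), Dusp6 (0.10) and Epcam (0.09105), and in experiment 4 alone Ezhip (0.69), Scml2 (0.25), Sohlh2 (0.22), Lefty2 (-0.20), Hrk (0.008397), Ccn1 (0.19), Bmi1 (0.06062), Chac1 (0.04171), H19 (0.0315), Zfy2 (0.01301), Cited1 (0.06872), Dicer1 (0.005712), Dnmt3l (0.15), Egr1 (-0.18), Hnf4a (0.01413), Lamc1 (0.06306), Rbl2 (0.007077) and Sparc (0.002053). With 1 library left out they were Dicer1 (-0.02803 to 0.01141), Upf1 (-0.02281 to 0.02705), Lamc1 (-0.04607 to 0.00767), Pou5f1 (-0.03842 to 0.02862) and Thbd (-0.12 to 0.46), none of which passed as reported, and with all 24 inputs Dicer1 (0.0006264). The call was lost in part of the 12 fits that left out 1 library for Axin2 (9 fits, -0.20 to -0.15), Mbnl2 (9 fits, -0.17 to -0.10), Rbl2 (9 fits, -0.19 to -0.16), Dusp5 (6 fits, -0.30 to -0.23), Fgfr2 (6 fits, -0.21 to -0.14), Map2 (5 fits, -0.26 to -0.21), Fgf4 (4 fits, 0.07151 to 0.07412) and Pdgfrb (3 fits, -0.22). It was lost without HA-Tnrc6a replicate 3 of experiment 3 for Dusp6, Fgfr3 and Sox15, without replicate 2 of it for Ctnnb1 and Lefty2, without 1 library of experiment 4 for Dgcr8, Fgfr3 and Lefty2, and without either of 2 such libraries for Nrcam, with Ago2 knockout replicate 1 of experiment 3 a further case for Ctnnb1. Seed matches of microRNAs were not run, since 3′ untranslated sequences were not used here.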

Other observations

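Genes of the circadian clock, a list put together after their values were seen and so without support from its count, were 11 lower and 3 higher of 18 in the Ago2 knockout. Cry1, a repressor of the clock, measured 33.1, 33 and 34 CPM in experiment 3 and 36.5, 30.5 and 36.7 CPM in experiment 4 without Ago2, against 71.7, 70.8 and 66.5 CPM and 64.4, 63 and 61.8 CPM in HA-Tnrc6a lysates. Its groups did not overlap, and it changed by -0.97 (SE 0.04, adjusted p = 2.3e-23). Per2, another repressor, fell by 2.04, Bhlhe41 by 1.47 and Cry2 by 0.43, while the nuclear receptors Nr1d1 and Nr1d2, which repress Arntl, rose by 0.74 and 0.79. Against untagged lysates 11 of the 18 were lower and 4 higher (18.9% and 19.3% of all genes). HA-Tnrc6a against untagged gave 2 higher and 5 lower (7.74% and 7.67% of all genes).

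X-linked genes of the Xlr, Rhox and Pnma families, likewise listed after their values were seen, were lower for 13 of 19. Xlr3b measured 3.53, 4.01 and 2.88 CPM in experiment 3 and 2.85, 4.08 and 3.32 CPM in experiment 4 without Ago2, against 21.6, 21.1 and 18.9 CPM and 11.6, 11.4 and 10.8 CPM in HA-Tnrc6a lysates, a change of -2.15 (SE 0.09, adjusted p = 4.1e-23). Its near-identical copy Xlr3a changed by -2.05 (SE 0.06, adjusted p = 4.0e-28), and reads shared between such copies make each value uncertain. HA-Tnrc6a lysates were themselves higher than untagged lysates for 16 of the 19 (7.74% of all genes), and Pnma5 was 1.30 higher there. Against untagged the knockout had 4 of 15 higher and 6 lower (19.3% and 18.9% of all genes).

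Of 56 canonical histone genes, whose copies can share reads, 12 were lower, against 15.2% of all genes. Their median was -0.26, with -0.48 in experiment 3 and -0.09 in experiment 4. The histone median changed with the reference. Against untagged lysates the knockout had 0 of 54 higher and 5 lower (19.3% and 18.9% of all genes), with a median of 0.02. HA-Tnrc6a against untagged had 3 of 55 higher and 0 lower (7.74% and 7.67% of all genes), with a median of 0.28. Of 21 host transcripts of small nucleolar RNAs 10 were lower, among them Gas5 (-0.22) and Snhg8 (-0.26). Of 13 mitochondrially encoded mRNAs 1 was lower.

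Among the well-expressed genes with the largest rises were also Prmt8, an arginine methyltransferase (1.23), the autophagy receptor Calcoco2 (1.15), Rragd, a GTPase of amino-acid signalling (1.15), Dusp27 (1.11), the sarcomere gene Ttn (1.06), Eprn (1.04), the adenylate kinase Ak7 (1.00), Aass of lysine breakdown (1.00) and Zfp607b (0.98).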
